A study of Mus musculus with 2 samples.

Results

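The genes described here are 32 genes of peroxisomes in mouse interscapular brown adipose tissue (BAT), of which 13 are Pex genes (peroxins, which build the organelle) and 19 encode its lipid-oxidizing enzymes, transporters and catalase. They were taken by symbol from a list of peroxisome genes that was drawn up with earlier results of these data known, and all 32 symbols were found among 30649 gene names in the deposited table. BAT of wild-type (WT) C57BL/6 mice was compared with BAT of Taf7l knockout (Taf7l KO) mice labelled with the same background (C57BL/6J in the methods for the KO line), which lack TAF7L, a paralog of the TFIID subunit TAF7. Each pool held RNA of 6 mice, so that there was 1 mRNA-seq library per genotype. The question of the comparison was how loss of TAF7L changes gene expression in BAT. The spread between mice or pools is therefore unknown, and neither p-values nor SDs can accompany the differences. One label gives an age of 1 month for both pools, whereas another gives 3 months for the Taf7l KO pool.

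Peroxisomes are small organelles that shorten very-long-chain, branched-chain and other fatty acids which mitochondria handle poorly. Their first oxidation step passes electrons directly to oxygen and makes hydrogen peroxide, which catalase breaks down. Peroxisomal enzymes are made in the cytosol and are recognized by the receptor PEX5, or by PEX7 for a smaller set, before they cross the membrane. Brown fat is rich in peroxisomes, and in rodent liver many of the oxidation genes respond to the nuclear receptor PPARα.

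The values are FPKM (fragments scaled to transcript length and to the number of mapped reads), summed over the transcript rows of a gene. A gene entered the comparison where either library reached 1 FPKM, which held for 12171 genes, and its log2 ratio is log2((KO + 0.1)/(WT + 0.1)), a scale that understates the difference of genes with low values. The steps of low FPKM values gave an estimated 25857254 mapped reads in WT and 78353707 in Taf7l KO, and the intervals given below are 95% exact binomial intervals of the KO over WT fold from estimated reads, which cover counting error only. The WT estimate is the smallest of several multiples that put low values on whole reads, and the KO estimate is above the number of reads that the labels give. A lower true depth in KO would make every interval wider than printed. The level of Taf7l was 0.0222 FPKM in WT and 0.00734 in KO, too low to check the genotype labels. All 12 brown fat markers on the list, Ucp1 among them, were above 0 FPKM in both libraries. The 20 skeletal muscle markers were too, so values above 0 cannot check the tissue label. The summed level of the brown fat markers was 14910 FPKM in WT and 6735 FPKM in Taf7l KO. Of the 12, 6 (50%) were at least 1.5-fold lower, against 12.7% of all genes compared. A log2 ratio above 0 was found for 5 of the 12 and for 6184 of all 12171 genes compared. All 20 skeletal muscle markers had a KO level 3-fold or more above WT, against 2.05% of all genes compared. Their summed level was 195 FPKM in WT and 2331 in KO. Of 10 markers of all fat cells 7 lay above 0, with a median log2 ratio of 0.13, while Fabp4, the most abundant, had 19657 FPKM in WT and 10713 in KO and set the summed level of 24730 FPKM in WT and 16248 in KO. The part of these shifts in the peroxisome values was not tested, and in bulk tissue fewer cells of a type and less RNA per cell cannot be told apart.

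Among the peroxisome genes compared, 4 stood at least 1.5-fold lower in Taf7l KO BAT and none stood higher by as much. The 4 lower genes were Ehhadh, Crot, Hacl1 and Pex7. Of the 29 genes that reached 1 FPKM, 4 (13.8%) were at least 1.5-fold lower, a share near the 12.7% of all genes compared. None of the 29 was at least 1.5-fold higher, against 16.5% of all genes compared. Ehhadh, Crot and Hacl1 were at least 2-fold lower, which is 10.3% of the 29 against 2.79% of all genes compared. None was 3-fold lower or higher, against 0.403% and 2.05% of all genes compared. The median log2 ratio of the 29 was -0.11, against 0.010 for all genes compared. Of the 29, 19 lay below 0, against 5987 of the 12171 genes compared. Summed over all 32 genes, the level was 1757 FPKM in WT and 1640 in KO.

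**Figure D1:**
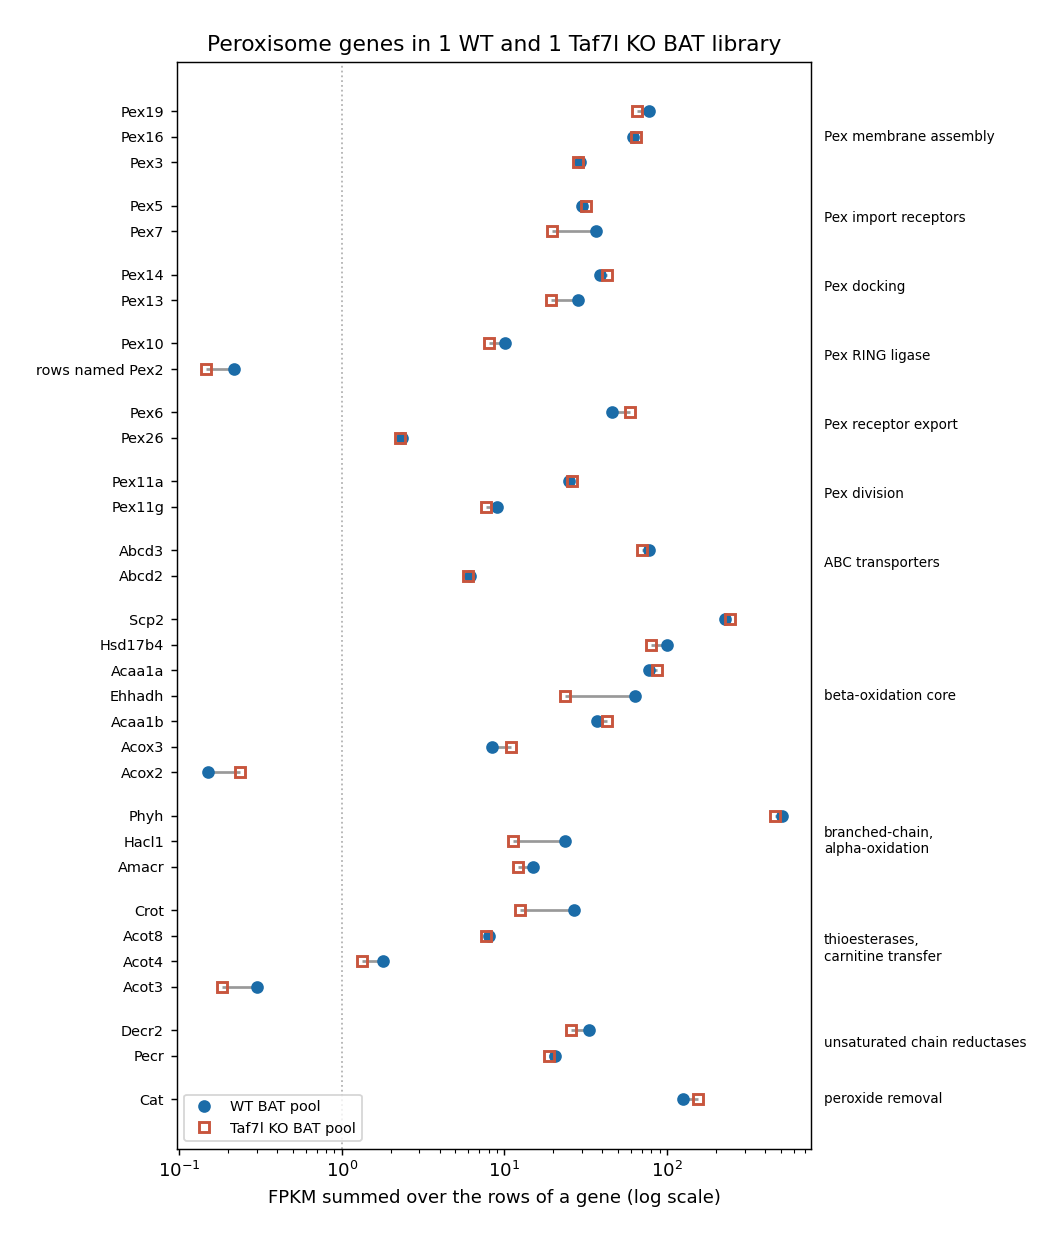
FPKM of each of the 32 peroxisome genes (x axis, log scale) in the WT pool (filled circles) and the Taf7l KO pool (open squares), 1 library each, grouped by role, with a dotted line at 1 FPKM. The widest gaps toward lower KO levels are those of Ehhadh (63.8 FPKM in WT, 23.4 FPKM in KO), Crot, Hacl1 and Pex7, while the symbols of most other genes nearly touch.

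The order of the levels was led by the same 3 genes in both libraries. Phyh was highest, with 511 FPKM in WT and 457 in KO, followed by Scp2 and by Cat. Among the 29 genes compared, the lowest in both libraries was Acot4, with 1.80 FPKM in WT and 1.34 in KO. Ehhadh moved most in the order, from rank 8 in WT to rank 16 in KO.

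The starting regions of the 4 lower genes are shown because these are the genes past 1.5-fold, 250 bases before to 50 bases after the RefSeq start site on GRCm38.p6, 5′ to 3′ on the gene's strand. All 4 genes lie on the minus strand, and the genes themselves cover chr16:21761285-21787834 (Ehhadh), chr5:8966033-8997146 (Crot), chr14:31607226-31640965 (Hacl1) and chr10:19860090-19907674 (Pex7). The windows shown are Ehhadh at chr16:21787785-21788084, Crot at chr5:8997097-8997396, Hacl1 at chr14:31640916-31641215 and Pex7 at chr10:19907625-19907924. Capitals mark CCAAT and the GC box GGGCGG on either strand.
Ehhadh: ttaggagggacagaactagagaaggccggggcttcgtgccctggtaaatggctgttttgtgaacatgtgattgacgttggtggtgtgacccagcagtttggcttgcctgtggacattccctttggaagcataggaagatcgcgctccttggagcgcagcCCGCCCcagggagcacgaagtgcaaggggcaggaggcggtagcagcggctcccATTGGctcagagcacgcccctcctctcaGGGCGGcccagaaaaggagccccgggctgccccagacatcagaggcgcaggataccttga
Crot: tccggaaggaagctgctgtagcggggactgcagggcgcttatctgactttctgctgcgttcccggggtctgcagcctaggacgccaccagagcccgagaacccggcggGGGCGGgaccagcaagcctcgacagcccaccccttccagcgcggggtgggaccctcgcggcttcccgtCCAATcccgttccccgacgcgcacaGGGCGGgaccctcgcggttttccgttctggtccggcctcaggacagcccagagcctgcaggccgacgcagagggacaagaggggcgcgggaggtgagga
Hacl1: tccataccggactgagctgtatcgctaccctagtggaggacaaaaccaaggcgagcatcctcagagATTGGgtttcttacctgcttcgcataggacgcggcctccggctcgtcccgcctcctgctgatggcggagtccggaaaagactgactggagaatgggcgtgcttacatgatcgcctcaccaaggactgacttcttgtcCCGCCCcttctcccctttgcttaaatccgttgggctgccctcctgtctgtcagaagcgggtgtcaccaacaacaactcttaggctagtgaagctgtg
Pex7: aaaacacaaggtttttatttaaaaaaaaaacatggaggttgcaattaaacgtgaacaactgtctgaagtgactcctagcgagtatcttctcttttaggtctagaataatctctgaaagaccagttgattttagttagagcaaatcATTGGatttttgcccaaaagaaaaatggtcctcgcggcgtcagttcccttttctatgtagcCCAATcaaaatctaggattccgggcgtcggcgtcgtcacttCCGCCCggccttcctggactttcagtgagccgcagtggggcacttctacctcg
The motifs were searched on both strands in the promoters of the 27 peroxisome genes that RefSeq's table held. CCAAT was present in all 4 shown and in 14 of the 27 (51.9%), against 41.1% of all 27025 genes with a promoter. The GC box was in all 4 and in 19 of the 27 (70.4%), against 38.2% of all. The 27025 genes were not limited to those that reached 1 FPKM, so these are not shares of expressed genes. TATAAA was found in 4 of the 27 (14.8%), none of them shown here, against 15.7% of all. The direct repeat AGGTCANAGGTCA, one spelling of the site that PPAR receptors bind with RXR, was in none of the 27 windows and in 0.0481% of all genes. A spelling this rare cannot show a lack among 27 genes, and sites outside these windows were not searched. The core AGGTCA of the repeat was in 6 of the 27 (22.2%), none of them shown here, against 18.1% of all.

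Of the genes that place proteins in the peroxisomal membrane, Pex19 was somewhat lower in KO, and Pex16 and Pex3 were close to level as deposited. Pex19, the chaperone that carries new membrane proteins, had 77.3 FPKM in WT and 65.3 in KO, 0.845 times WT (interval 0.818 to 0.872). Pex16, a membrane receptor of early peroxisomes, had 62.02 FPKM in WT and 64.2 in KO, with an interval of 0.981 to 1.095 that includes 1. Pex3, the docking site of PEX19, had 29.3 FPKM in WT and 28.4 in KO (interval 0.899 to 1.05). With the trend in GC content and length subtracted, the log2 ratios were -0.18 (Pex19), -0.20 (Pex16) and 0.38 (Pex3). None of these 3 genes passed 1.5-fold.

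The receptors that import enzymes differed from each other. Pex7, the receptor for the N-terminal targeting signal used by few enzymes such as PHYH and the ACAA1 thiolases, had 36.5 FPKM in WT and 19.7 in KO, 0.539 times WT (interval 0.493 to 0.589). Its 2 transcript rows gave nearly the same fold, 0.537 and 0.541, although reads shared between rows make them no independent check. Pex5, the receptor for the common C-terminal signal, had 30.03 FPKM in WT and 31.6 in KO, 1.05 times WT (interval 1.00366 to 1.104). Pex7 thus stood above Pex5 in WT, at 1.22 times its FPKM, and below it in KO, at 0.622 times. Genes of PEX7 cargoes had log2 ratios of -0.16 (Phyh), 0.17 (Acaa1a), 0.20 (Acaa1b) and -0.54 (Agps, of ether lipid synthesis), against -0.89 for Pex7. Agps was low, with 3.67 FPKM in WT and 2.49 in KO.

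The docking pair at the import pore differed in the deposited values, but not in this order once GC content was taken into account. Pex13 had 28.1 FPKM in WT and 19.3 in KO, 0.686 times WT (interval 0.655 to 0.717), just short of 1.5-fold. Pex14, its partner, had 38.4 FPKM in WT and 42.4 in KO, 1.104 times WT (interval 1.047 to 1.16). Pex13 had the lowest GC content of the 29 genes, at 38.6%, and with the trend in GC content and length subtracted the log2 ratio was -0.021 for Pex13 and -0.19 for Pex14.

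Of the RING ubiquitin ligase that releases spent receptors, Pex10 had 10.1 FPKM in WT and 8.05 in KO, 0.7996 times WT (interval 0.711 to 0.904). The symbol Pex2 is misleading in this table. Its 5 rows span 35449 to 193452 bp, whereas the peroxin gene Pex2 covers 18409 bp on chromosome 3 of GRCm38, and RefSeq lists Pex2 as an older name of Pex5l, a gene of 195377 bp on the same chromosome that encodes a relative of PEX5. These rows summed to 0.218 FPKM in WT and 0.145 in KO, about 11 and 24 reads. The peroxin stands under its older symbol Pxmp3, in 7 rows of 16052 bp each, with 26.8 FPKM in WT and 20.3 in KO, 0.755 times WT. Read in this way, both RING genes lay between 1.5-fold lower and level.

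PEX6 is an ATPase that pulls PEX5 back out of the membrane and PEX26 anchors it. Pex6 had 45.8 FPKM in WT and 59.3 in KO, 1.29 times WT (interval 1.25 to 1.34), with a log2 ratio of 0.37 that turned to -0.24 with the trend in GC content and length subtracted. Pex26 was low, with 2.33 FPKM in WT and 2.28 in KO. Of the genes that elongate and divide peroxisomes, Pex11a had 24.9 FPKM in WT and 25.8 in KO, and Pex11g 9.02 FPKM in WT and 7.67 in KO (interval 0.677 to 1.068). A further row of Pex11g, under the older symbol Pex11c, had 14.0 FPKM in WT and 9.87 in KO. Pex11a responds to PPARα agonists in rodent liver, and its log2 ratio here was 0.055.

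Among the transporters that bring acyl-CoA into the organelle, Abcd3, the carrier of branched-chain and dicarboxylic acids, had 77.8 FPKM in WT and 70.3 in KO, 0.903 times WT (interval 0.877 to 0.931). Abcd2, a carrier of very-long-chain and polyunsaturated acids, had 6.14 FPKM in WT and 5.99 in KO (interval 0.903 to 1.057). Abcd3 was 12.7 times as high as Abcd2 in WT and 11.7 times in KO, per length.

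In the β-oxidation chain the genes of both bifunctional enzymes, which hydrate and dehydrogenate, were lower, and only Ehhadh passed 1.5-fold. Ehhadh, the L-bifunctional enzyme that hydrates and dehydrogenates straight-chain intermediates, had 63.8 FPKM in WT and 23.4 in KO. The KO level was 0.367 times WT (interval 0.353 to 0.382), the lowest ratio of the 29 genes, and 0.5% of all genes compared had a lower log2 ratio. Hsd17b4, the D-bifunctional enzyme that does the same work for very-long and branched chains, had 100.1 FPKM in WT and 79.2 in KO, 0.792 times WT (interval 0.769 to 0.815). The FPKM of Ehhadh was 0.637 times that of Hsd17b4 in WT and 0.295 times in KO.

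The oxidase compared before these steps and the thiolases after them had deposited levels above WT. Acox3, an oxidase of branched acyl-CoA, had 8.35 FPKM in WT and 10.9 in KO, 1.31 times WT (interval 1.20 to 1.41). Acox2, an oxidase of bile acid precursors and branched chains in liver, was listed at 0.150 FPKM in WT and 0.237 in KO, about 9 and 42 reads (interval 0.739 to 3.60). The thiolase gene Acaa1a had 77.3 FPKM in WT and 86.9 in KO, 1.12 times WT (interval 1.081 to 1.17), and its near-identical neighbour Acaa1b 37.3 FPKM in WT and 42.9 in KO. Reads of these 2 genes can be exchanged by mapping, so their values are uncertain, but Acaa1a was 2.07 times Acaa1b in WT and 2.03 times in KO. Scp2, which encodes the thiolase of branched chains and a lipid carrier, had 227 FPKM in WT and 245 in KO, 1.080 times WT (interval 1.060 to 1.1001). Of the 6 β-oxidation genes compared, Ehhadh and Hsd17b4 lay below 0 and the other 4 above, but with the trend in GC content and length subtracted (given with the comparison of groups) Acaa1a turned to -0.14 and Acaa1b to -0.075.

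Of the α-oxidation pair, Hacl1 passed 1.5-fold and Phyh did not. Phyh, which hydroxylates phytanic acid, was the most abundant gene of all 32 and had a KO level 0.895 times WT (interval 0.879 to 0.911). Hacl1, the lyase that takes the next step and splits off the carboxyl carbon, had 23.4 FPKM in WT and 11.3 in KO, 0.482 times WT (interval 0.452 to 0.515). Its 2 rows had folds of 0.479 and 0.485, and those of Crot 0.459 and 0.523. Phyh was 21.8 times as high as Hacl1 in WT and 40.5 times in KO, per length. Amacr, the racemase that readies branched acyl-CoA for oxidation, had 14.9 FPKM in WT and 12.1 in KO, 0.811 times WT (interval 0.7505 to 0.876).

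Of the genes through which shortened chains leave, Crot was lower. It encodes carnitine octanoyltransferase, which joins medium-chain products to carnitine, and had 26.7 FPKM in WT and 12.4 in KO, 0.464 times WT (interval 0.437 to 0.491). Crat, the carnitine acetyltransferase of peroxisomes and mitochondria, was higher, with 130 FPKM in WT and 203 in KO, so that Crot was 0.206 times Crat in WT and 0.0610 times in KO. Acot8, a thioesterase of broad range, had 8.06 FPKM in WT and 7.75 in KO (interval 0.814 to 1.14). Acot4, a thioesterase of dicarboxylic acids, had the lowest level of the genes compared. Acot3, its close neighbour, had 0.302 FPKM in WT and 0.183 in KO, about 13 and 24 reads, and its interval of 0.298 to 1.303 includes 1.

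The reductases of unsaturated chains and catalase showed no gap of 1.5-fold. Decr2, which reduces dienoyl-CoA, had 33.2 FPKM in WT and 25.6 in KO, 0.771 times WT (interval 0.726 to 0.819). Pecr, which reduces trans-enoyl-CoA, had 20.5 FPKM in WT and 18.9 in KO (interval 0.831 to 1.028). Cat, the catalase gene, had 125 FPKM in WT and 154 in KO, 1.23 times WT (interval 1.20 to 1.26).

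**Figure D2:**
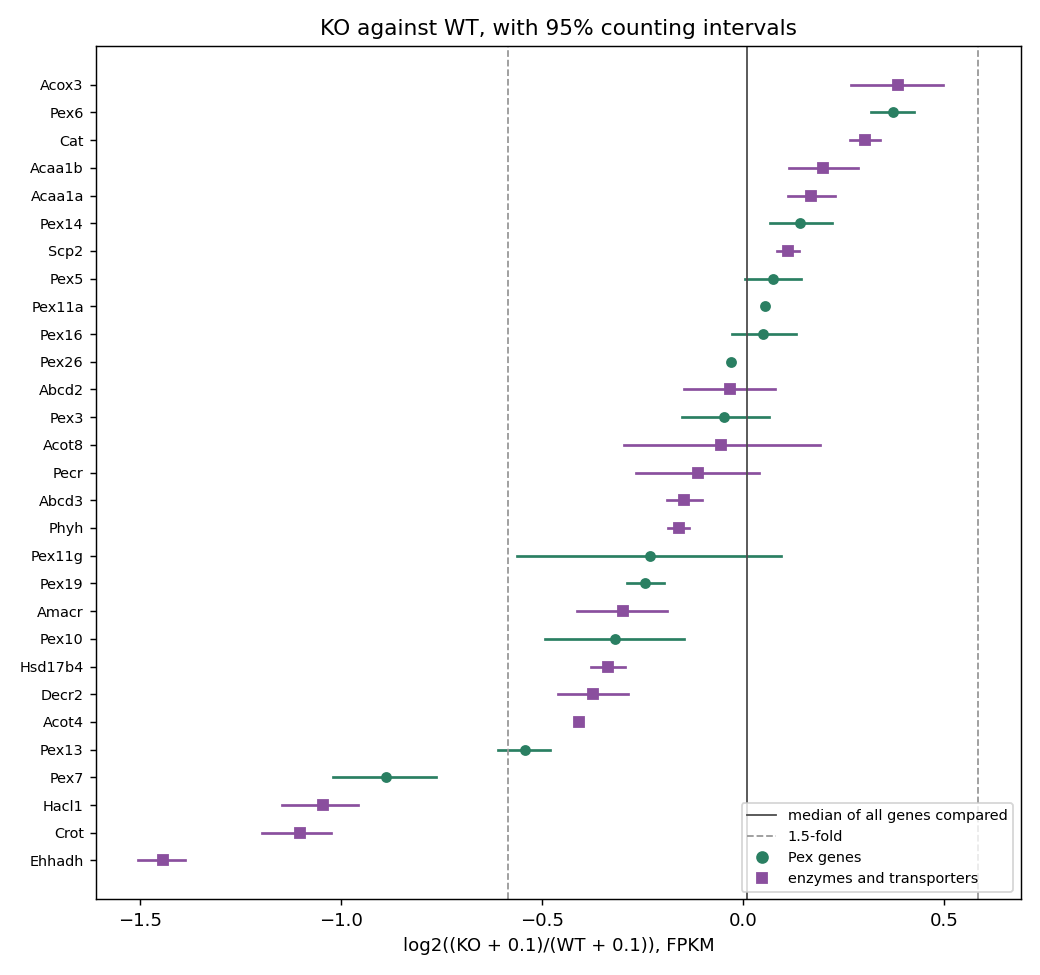
The log2 ratio of KO over WT (x axis) for the 29 peroxisome genes at 1 FPKM or more, with circles for Pex genes and squares for enzymes and transporters, and with lines for 95% exact binomial intervals from estimated reads, where these could be had, which cover counting error only. Ehhadh, Crot, Hacl1 and Pex7 lie left of the dashed 1.5-fold line with their whole intervals, and no gene lies right of the other.

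The Pex genes were set against the enzymes and transporters. The median log2 ratio of the 12 Pex genes compared was -0.039 and that of the 17 enzymes and transporters -0.15, a gap of 0.11 with the Pex genes higher. The groups overlapped, with a range of -0.89 to 0.37 for Pex genes and of -1.44 to 0.38 for enzymes and transporters. Of the Pex genes 1 (8.33%) was at least 1.5-fold lower, and of the enzymes and transporters 3 (17.6%), on either side of the 12.7% of all genes compared, and the difference between these counts has no test.

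**Figure D3:**
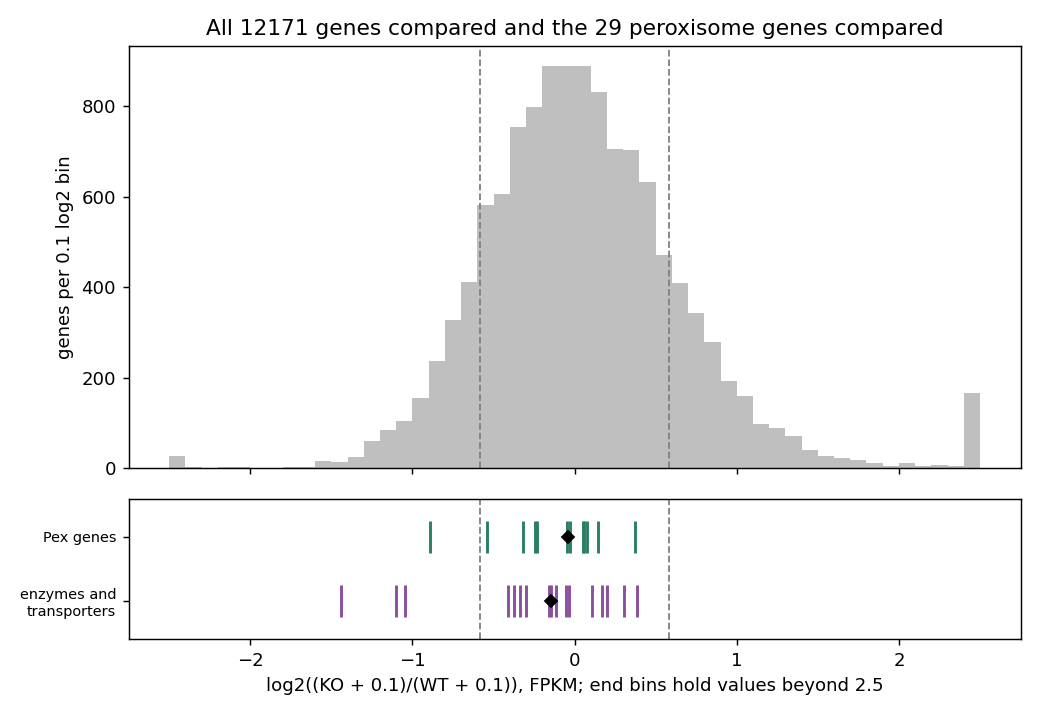
Upper panel, the number of genes per 0.1 of log2 ratio among all 12171 genes compared, and lower panel, the 12 Pex genes and 17 enzymes and transporters as ticks on the same axis, with diamonds at the medians of -0.039 and -0.15 and dashed lines at 1.5-fold. Most ticks fall in the bulk of all genes, and 4 lie left of the lower line.

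This order of the groups did not hold once GC content was taken into account. Across 10372 genes with a known coding transcript, the median log2 ratio was -0.38 in the 2075 genes of lowest GC content and 0.38 in the 2075 of highest. The Pex genes had a median GC content of 53.9% and the enzymes and transporters 48.7%. After the trend with GC content and transcript length over all genes was subtracted, the median was -0.22 for the Pex genes and -0.14 for the enzymes and transporters, so that the Pex genes were now lower, by a gap of -0.080. After this step 10 of the 12 Pex genes and 10 of the 17 enzymes and transporters lay below 0, against 5152 of the 10372 genes. The sign turned for Pex5, Pex14, Pex16, Acaa1a and Acaa1b, to below 0, and for Pex3, Phyh, Abcd2, Abcd3 and Pecr, to above 0. Pex6, of 63.1% GC content, went from 0.37 to -0.24, and Pex13 from -0.54 to -0.021. Ehhadh (-1.39), Hacl1 (-1.02), Crot (-0.87) and Pex7 (-0.79) stayed at least 1.5-fold lower, 13.8% of the 29 genes against 7.61% of the 10372. The longest coding transcript of Pex7 has 8099 bases, so its corrected value rests on a transcript that its rows may not measure. None of the 29 was at least 1.5-fold higher, against 10.4% of the 10372.

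**Figure D4:**
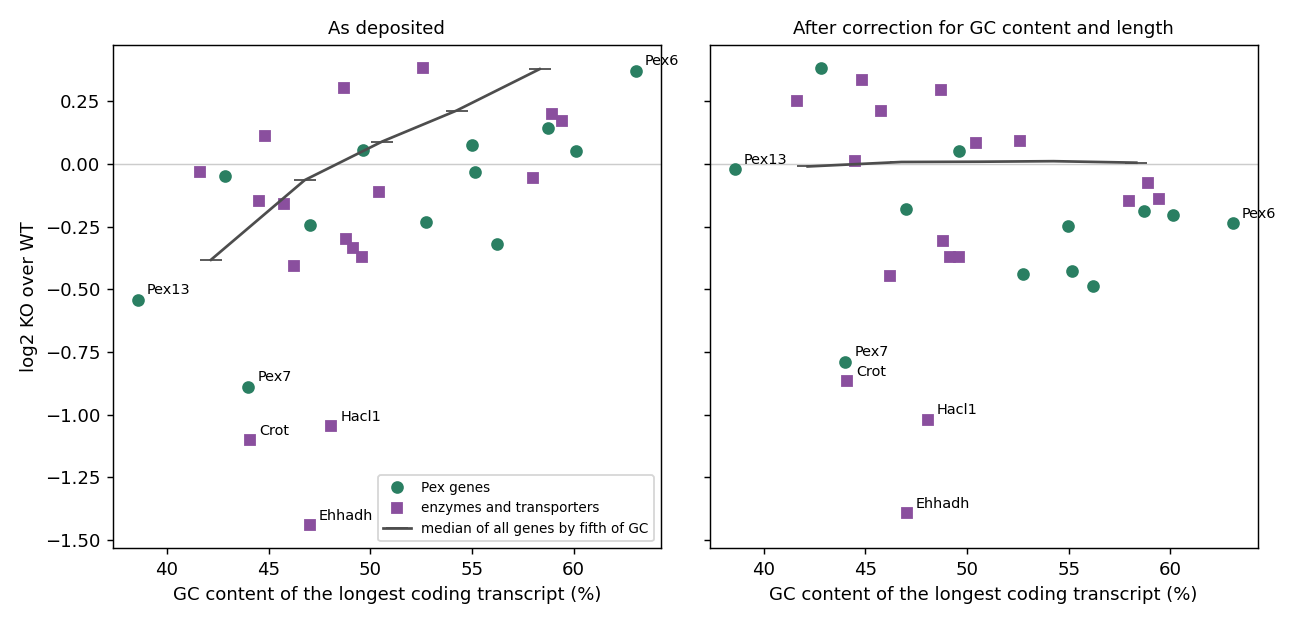
The log2 ratio of KO over WT (y axis) against the GC content of the longest coding transcript (x axis) for the 29 peroxisome genes, as deposited (left) and after the trend with GC content and length was subtracted (right), where the grey line joins the medians of all genes in 5 bins of GC content, from -0.38 to 0.38 on the left. Pex6 and Pex13 move toward the other genes on the right, whereas Ehhadh, Hacl1, Crot and Pex7 stay below them.

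Other genes of the organelle, on a list of 42 that were not members, are given for comparison. Of these, 41 were found and 33 reached 1 FPKM, of which 6 lay 1.5-fold or more lower and 2 higher by as much (18.2% and 6.06%, against 12.7% and 16.5% of all genes compared), and their median stood at -0.21. Nudt7, a hydrolase of peroxisomal coenzyme A, had 191 FPKM in WT and 110 in KO. Idh1, the isocitrate dehydrogenase of cytosol and peroxisomes, had 110 FPKM in WT and 63.8 in KO. Acbd5, a membrane protein that binds very-long-chain acyl-CoA, had 15.3 FPKM in WT and 9.91 in KO. The other lower genes were Far1 of ether lipid synthesis, under its older symbol Mlstd2 (log2 ratio -0.74), the fission factor Mff, under the symbol 5230400G24Rik (-0.64), and Prdx5, a peroxidase found also in mitochondria (-0.59). Crat, described above, was among the higher genes, with a log2 ratio of 0.65. With Prdx5, the most abundant genes of the list were Ech1, an isomerase, with 1822 FPKM in WT and 1256 in KO, and the acyl-CoA synthetase gene Acsl1, with 284 FPKM in WT and 396 in KO. With the GC and length trend subtracted, 3 of the 33 (9.09%) lay at least 1.5-fold lower and 0 higher by that much, against 7.61% and 10.4% of all genes so corrected.

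Genes of mitochondrial fatty acid oxidation had a lower median than either list of peroxisomal genes, a difference between lists that has no test. Of 19 such genes, all compared, 3 lay 1.5-fold or more lower and 1 higher by as much (15.8% and 5.26%, against 12.7% and 16.5% of all genes compared). The median stood at -0.28, against -0.11 for the 29 peroxisomal genes and -0.21 for the 33 other peroxisome genes. With the GC and length trend subtracted, these medians were -0.29, -0.19 and -0.24. Of the 19 genes, 4 (21.05%) were then at least 1.5-fold lower and 0 higher by that much, against 7.61% and 10.4% of all genes so corrected. Etfb, an electron carrier of the pathway, had 2064 FPKM in WT and 1637 in KO, Hadhb, a subunit of the trifunctional protein, 1874 FPKM in WT and 1340 in KO, and the thiolase gene Acaa2 1855 FPKM in WT and 1173 in KO. The thiolase genes thus differed between the organelles, with log2 ratios of -0.66 for Acaa2, 0.17 for Acaa1a and 0.20 for Acaa1b as deposited. No mitochondrial gene of the list was 2-fold lower, against 2.79% of all genes compared, a share too small to show a lack among 19 genes. Of the 29 peroxisomal genes, Ehhadh, Crot and Hacl1 (10.3%) were 2-fold lower.

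Genes that respond to PPARα in rodent liver, Ehhadh and Crot among them, are given for comparison. A part of PPARα in these values was not tested. Of 18 such genes on the list, 9 of them members described above, 14 reached 1 FPKM, of which 14.3% lay 1.5-fold or more lower and 14.3% higher, near the shares of all genes. Ehhadh and Crot were at least 1.5-fold lower, the carnitine transferase gene Cpt1a and the pantetheinase gene Vnn1 higher by as much, and their log2 ratios had a median of -0.13. Pdk4, a kinase that restrains pyruvate use and the most abundant gene of this list, had 289 FPKM in WT and 311 in KO.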

How the data were processed

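Single-end reads of both libraries were mapped by the authors with TopHat (v1.4.0), and cufflinks (v1.3.0), run with its likelihood search limited to 1 iteration, gave the deposited FPKM of 55350 transcript rows. Row positions are not those of the build named, mm10, and were not used.

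FPKM were summed per gene symbol, with a pseudocount of 0.1 FPKM and a minimum of 1 FPKM in either library. The members and lists were chosen with earlier results of these data known. The text names all members, the other peroxisome genes at least 1.5-fold different, and the 3 genes of highest mean FPKM of the peroxisome, mitochondrial and PPARα lists, except for 2 genes that are not reported here, while marker lists are given by counts and sums, with Ucp1 and Fabp4 named. Agps, Cpt1a, Vnn1, the 4 promoters shown and all motifs but the direct repeat were chosen after their values were seen.

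Mapped reads were estimated from single-exon genes, taking the smallest depth at which FPKM times effective length (fragments of 200 bp, SD 80 bp) fell on whole reads. Of 71 such values in WT, 87.3% lay within 0.05 of a whole number, and of 49 in KO 89.8%. Lengths came from GENCODE M21 transcripts of equal span within 30 bp for 13 members and of the nearest span for 16, and 3 members have no interval. Trends with GC content and length of the longest coding transcript were subtracted by lowess. The alternatives covered pseudocount, minimum, scaling, rows, fold threshold, and GC content and length. Python 3.11.15, numpy 2.4.6, pandas 2.3.3, scipy 1.17.1, statsmodels 0.14.6 and matplotlib 3.10.9 were used, and the steps were tested on simulated data. A search for targeting signals in proteins was planned and not run here.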

Additional observations from a re-analysis of the deposited data

How the results depend on the processing

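The count of 4 lower genes was the same, with the same genes Ehhadh, Crot, Hacl1 and Pex7, under every alternative of pseudocount, minimum, scaling, rows and GC content. At 3-fold it was 0, since the threshold is stricter. The median of the Pex genes was 0.059 and that of the enzymes and transporters -0.046 when the libraries were scaled to the summed FPKM of genes other than the 100 highest, muscle and globin genes, a setting that moved the median of all genes to 0.11. The Pex median was 0.030 with the highest row of each gene only. After correction for GC content and length it was -0.22, and the gap between the groups was -0.080. Adding rows under older symbols, an alternative chosen after seeing the data, left 4 lower genes and a gap of 0.0997. Of 287 values of single genes under 10 alternatives, 286 moved by at most 1.5-fold, the exception being Pex6 after correction for GC content and length. No paired analysis was possible because each genotype has 1 pooled library. The depth limits Acot3, Acox2 and the rows named Pex2, which have too few reads for a direction.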
